A study of Arabidopsis thaliana with 12 samples.

Results

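By a rule on group means of 2 arrays, 124 of the 22746 probe sets measured, or 0.545%, had opposite salt responses in leaves of Col(gl) and Col. These are 2 of the 3 Arabidopsis thaliana genotypes of the study. Not all of the 124 hold by single replicates, as given below. The members were chosen on the salt response, the mean log2 signal at 100 mM NaCl minus that at 0 mM. A member had responses of opposite sign in Col(gl) and Col, each over 0.7 in size, and a mean signal of at least 6 in its highest group. Of the 150 probe sets that met these conditions, 21 plastid-encoded ones, the locus AT4G29780 and 4 that moved in Ws against Col by 0.5 or more were left out. The members fall into 82 probe sets that were higher with salt in Col and lower in Col(gl), called the Col-raised set here, and 42 that were higher with salt in Col(gl) and lower in Col, called the Col(gl)-raised set. The rule also leaves out STZ, AT4G27654 and symbols that start with nad, ccb, WRKY, MYB, NAC, BZIP, CYP or UGT. Named members therefore carry none of these names by rule. Exactly 1 gene is listed for 50 members, several genes for 1, and no gene for 73 in the annotation used here. These 73 carry no name and could not be held against the excluded names, so some may be such genes.

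The groups were Col(gl), Col and Ws plants, each with NaCl brought to 100 mM and without NaCl, with 2 biological replicates per combination and 1 array each, 12 arrays in all. All plants were grown in soil, RNA came from leaves 20 days after sowing, and the salted plants had been on NaCl for 6 days, with the dose raised in steps. Col and Ws are the usual names of the accessions Columbia and Wassilewskija; what distinguishes Col(gl) from Col is not given in the labels. The labels name no transgene and do not say how many plants went into a replicate. The leaf markers RCA and LHCB4.1 lay between 13.43 and 14.06 on all arrays, and the root hair genes EXPA7 and EXPA18 between 4.16 and 4.87. The remaining measured root marker, the glucosidase gene PYK10, lay at 7.73 to 9.99 in salted Col and 3.61 to 6.73 in salted Ws, and at 3.51 to 4.0 in the other groups. Its part in the responses was not tested.

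Plants that meet salt in the soil first sense a fall in water availability and later the build-up of sodium and chloride in their leaves. Calcium-binding proteins, ubiquitin ligases and cell wall proteins are among the products of genes that respond within minutes to many kinds of stimulus in leaves, including touch, cold and wounding. Accessions of this species differ in how strongly such genes respond and in their level without stress.

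Array medians lay between 6.15 and 6.38, and lower quartiles between 4.19 and 4.42, so signals near or under 4.42 are not shown to be above background. A pair of arrays stood apart. In replicate 1 of salted Col and of salted Ws, the median signal of 69 plastid-encoded genes was 9.48 and 8.73, against 10.34 to 11.78 on the other 10 arrays. The actin control probe sets, which read the 3′ and the 5′ end of the transcript, differed by 3.68 and 3.70 on those arrays and by 1.99 to 2.69 on the other 10. The same difference for ubiquitin was 1.31 and 1.47 on those arrays, and at most 1.23 on the others. For GAPDH only replicate 1 of salted Ws stood out, at 1.36. Replicate 1 of salted Col lay within the GAPDH range of the other 10 arrays, 0.59 to 1.05. The dependence of the members on replicate 1 of salted Col and of salted Ws is given below by replicate.

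The rule sets the signs of the Col(gl) and Col responses, and the values that follow for these genotypes describe the members and test nothing. In the Col-raised set the median response was -0.93 in Col(gl), with a range of -2.80 to -0.70, and 2.35 in Col, with a range of 0.73 to 5.21. A probe set reads the transcript of a gene in the whole leaf, where fewer cells of a type and less RNA per cell cannot be told apart. Over all probe sets the medians were -0.02 in Col(gl) and -0.13 in Col. In the Col(gl)-raised set the median response was 0.85 in Col(gl), with a range of 0.72 to 1.93, and -1.24 in Col, with a range of -3.28 to -0.74. The movement in Col was therefore the larger one in both sets by their medians. In all 82 Col-raised members the 2 salted arrays of each genotype lay beyond both unsalted ones, where 28.6% of all probe sets were this far lower in Col(gl) and 26.8% this far higher in Col. In the Col(gl)-raised set this held for 42 members in Col(gl) and 36 of 42 in Col, where 26.5% of all probe sets were this far higher in Col(gl) and 46.7% this far lower in Col.

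Among the members the genotypes already differed without salt. The rule partly shapes this, since the same Col(gl) and Col arrays chose the members. With each probe set centred on its mean over the 12 arrays, the median Col-raised member stood at 0.09 and 0.12 in salted Col(gl), and at 1.24 and 1.09 in unsalted Col(gl). It stood at 1.17 and 1.28 in salted Col and at -0.93 and -1.10 in unsalted Col. Unsalted Col(gl) was thus at about the height of salted Col, and salted Col(gl) in between. Ws stood at 0.02 and 0.03 with salt and at -1.41 and -1.34 without, so its unsalted arrays were near those of Col. The Col(gl)-raised set mirrored this in part, with 0.22 and 0.22 in salted Col(gl) against -0.69 and -0.74 in unsalted Col(gl), and -0.90 and -0.18 in salted Col against 0.72 and 0.74 in unsalted Col. Its salted Ws arrays stood apart from each other at -0.52 and 0.38, against 0.58 and 0.65 in unsalted Ws.

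**Figure D1:**
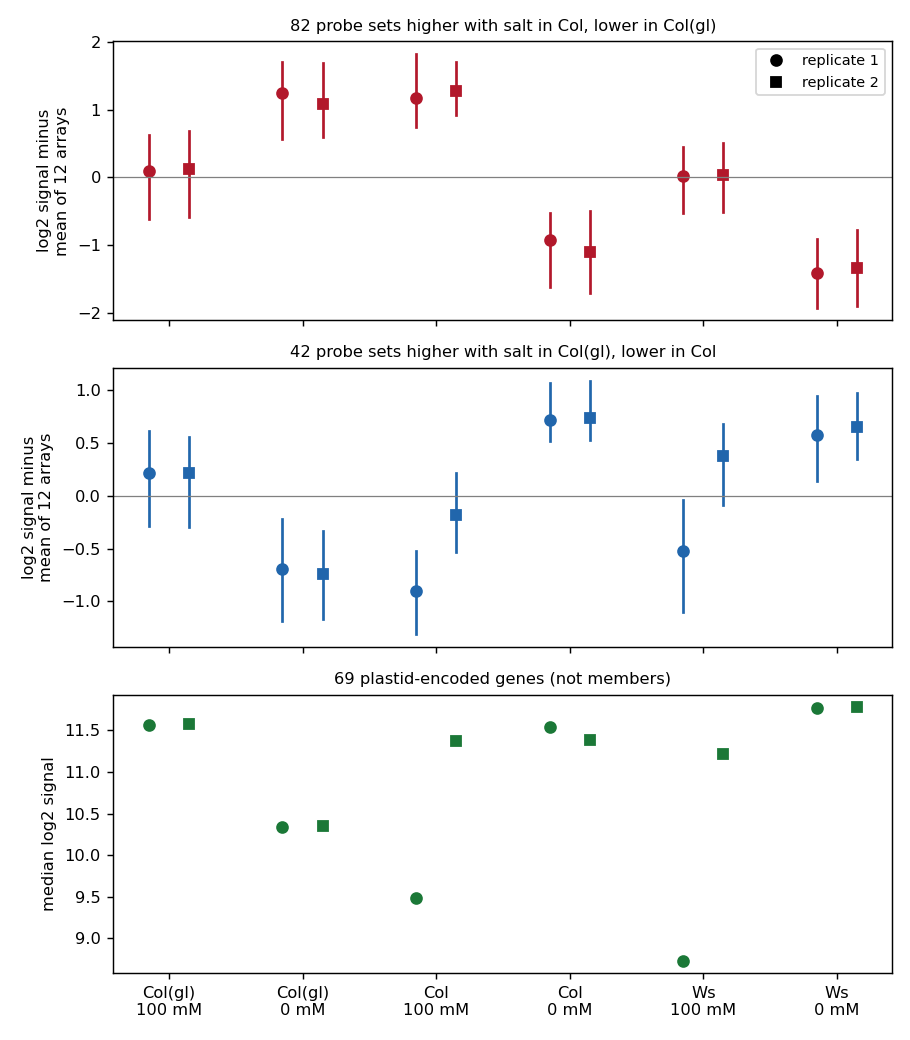
Median (symbol) and quartiles (line) of the members' log2 signal on each of the 12 arrays, each probe set centred on its mean over all arrays, for the Col-raised set (top) and the Col(gl)-raised set (middle), with the median log2 signal of 69 plastid-encoded genes that are not members (bottom). In the top panel the unsalted Col(gl) arrays, at 1.24 and 1.09, reach the salted Col arrays, at 1.17 and 1.28; in the bottom panel replicate 1 of salted Col and Ws lies lowest, at 9.48 and 8.73.

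Probe set by probe set, the level in unsalted Col(gl) was above that in unsalted Col for 79 of the 82 Col-raised members, with a median difference of 2.3 and with 61 members 1 log2 unit or more above. Both Col(gl) arrays lay above both Col arrays in 75 members, where 26.3% of all probe sets did so, a count that is not independent of the rule. Against salted Col the median difference of unsalted Col(gl) was -0.11, and 51 members lay within 1 unit. Salted Col(gl) remained above unsalted Col in 63 members, by a median of 1.18 over all 82. At 100 mM the median difference of Col(gl) from Col was -1.25. The highest of the 6 group means was that of salted Col in 42 members, unsalted Col(gl) in 36 and salted Ws in 4. The lowest was that of unsalted Ws in 54 members, unsalted Col in 14, salted Col(gl) in 11 and salted Ws in 3.

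The Col(gl)-raised members ran the other way. Unsalted Col(gl) differed from unsalted Col by a median of -1.49, and both arrays of Col(gl) lay below both arrays of Col in 40 of 42 members, where 36.3% of all probe sets did so. Unsalted Col(gl) differed from salted Col by a median of -0.15. At 100 mM the median difference of Col(gl) from Col was 0.74. These level differences use the same 4 groups of arrays that chose the members, and a rise in Col beside a fall in Col(gl) shapes them, so they are not independent of the rule. Among the 2304 other probe sets that were over 0.7 higher with salt in Col and reached a signal of 6, the median difference of unsalted Col(gl) from unsalted Col was 0.50. Among the 1851 that were over 0.7 lower in Col it was -0.78.

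The trichome markers TRY and GIS moved with the Col(gl)-raised set in Col and Ws, and of 6 markers only these could be matched by name. A list of 20 trichome development genes had 4 matched, among them SIM and SPY, which did not share the pattern. SIM was higher in unsalted Col(gl), at 7.46, than in unsalted Col, at 6.61, and responded by 0.02 in Col(gl), -0.13 in Col and -0.49 in Ws. SPY had 7.91 and 7.95 in these groups, and responded by 0.16 in Col(gl), -0.03 in Col and -0.01 in Ws. For TRY and GIS, the log2 of the summed unlogged signals was 5.93 to 6.40 in salted Col(gl) and 6.2 to 6.27 in unsalted Col(gl). It was 7.14 to 7.17 in salted Col against 9.08 to 9.31 in unsalted Col, and 7.78 to 8.46 in salted Ws against 9.30 to 9.44 in unsalted Ws. Both markers were thus low in Col(gl) whatever the salt, and lower with salt in Col and Ws. TRY, a repressor of trichome initiation, fell by 2.1 ± 0.16 in Col (SE, n = 2 arrays each; limma, adjusted p = 2.1e-05) and had a response of -0.06 in Col(gl). The part of trichome RNA in the members' levels and responses was not tested.

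**Figure D2:**
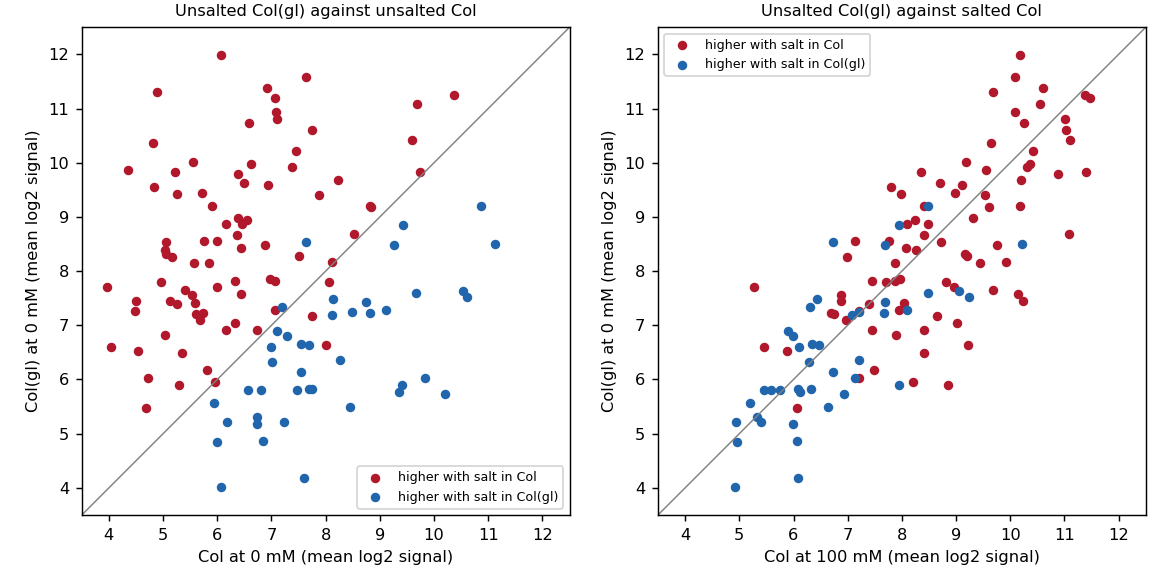
Mean log2 signal of each of the 124 members in unsalted Col(gl) (vertical axis) against unsalted Col (left) and salted Col (right), with the line of equal level; each point is 1 probe set and the mean is over 2 arrays. Of the Col-raised members, 79 lie above the line on the left, and on the right 51 lie within 1 unit of it.

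The Col-raised set holds 31 members with 1 named gene. The strongest fall in Col(gl) among these was that of AT1G04770, a tetratricopeptide repeat protein. Its log2 signal was 5.83 and 6.12 in salted Col(gl) against 8.19 and 8.13 in unsalted Col(gl), and 9.95 and 9.91 in salted Col against 8.17 and 8.05 in unsalted Col. The unsalted arrays of both genotypes were at the same height, and salt parted them by -2.18 in Col(gl), or 4.54-fold down, and 1.81 in Col, or 3.51-fold up. In Ws it had 9.94 and 10.47 with salt and 8.66 and 8.75 without, a rise of 1.5 ± 0.17 (SE, n = 2 arrays each; limma, adjusted p = 0.00041). AT3G23170 was built alike, with 4.39 and 4.45 in salted Col(gl) against 6.17 and 6.16 in unsalted Col(gl), and 7.34 and 7.62 in salted Col against 5.80 and 5.83 in unsalted Col. Its salted Col(gl) signal was near the lower quartile of the arrays, so its response there, -1.75, may be understated. These 2 genes differ from most of the set in starting from a similar unsalted level in Col(gl) and Col.

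EXO (AT4G08950) encodes a cell wall protein that promotes leaf growth downstream of brassinosteroids. It had 10.92 and 10.78 in salted Col(gl) against 12.01 and 11.95 in unsalted Col(gl), and 9.76 and 10.61 in salted Col against 6.05 and 6.07 in unsalted Col. Salted Col(gl) was thus above every Col array although EXO had fallen there. The response was -1.12, or 2.18-fold down, in Col(gl) and 4.12, or 17-fold up, in Col. In Ws, EXO had 9.63 and 10.02 with salt and 7.34 and 7.16 without, and rose by 2.58 ± 0.24 (SE, n = 2 arrays each; limma, adjusted p = 0.00013). EXLA2 (AT4G38400), an expansin-like wall protein, had 7.21 and 7.24 in salted Col(gl) against 8.28 and 8.24 in unsalted Col(gl), and 6.88 and 7.08 in salted Col against 5.04 and 5.31 in unsalted Col. Both groups of Col(gl) arrays were above both groups of Col arrays. In Ws it rose by 1.42 ± 0.18 (SE, n = 2 arrays each; limma, adjusted p = 0.00086).

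CML38 (AT1G76650), a calmodulin-like calcium sensor, had 9.15 and 9.15 in salted Col(gl) against 9.93 and 10.10 in unsalted Col(gl), and 9.26 and 9.12 in salted Col against 5.50 and 5.59 in unsalted Col. Salt thus brought the genotypes to the same height, by a response of -0.86 in Col(gl) and 3.65 in Col. Ws had 7.08 and 6.48 with salt and 4.55 and 4.70 without, a rise of 2.15 ± 0.18 (SE, n = 2 arrays each; limma, adjusted p = 6.6e-05). Another member with calcium-binding EF hands, AT4G27280, had 9.38 and 9.44 in salted Col(gl) against 10.64 and 10.57 in unsalted Col(gl), and 11.20 and 10.86 in salted Col against 7.93 and 7.56 in unsalted Col. Its response was -1.19 in Col(gl), 3.28 in Col and 1.84 ± 0.17 in Ws (SE, n = 2 arrays each; limma, adjusted p = 0.00015). On the chromosome CML38 and AT1G76600 are close, with 4 protein-coding genes between them. AT1G76600 had 9.65 and 9.46 in salted Col(gl) against 10.80 and 10.80 in unsalted Col(gl), and 11.12 and 10.89 in salted Col against 7.20 and 7.01 in unsalted Col.

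AT2G27080, of the hydroxyproline-rich late embryogenesis abundant family, had 7.08 and 7.04 in salted Col(gl) against 8.36 and 8.27 in unsalted Col(gl), and 9.39 and 8.95 in salted Col against 5.34 and 4.78 in unsalted Col. Its response of 4.11 in Col, or 17.2-fold, was nearly that of EXO, beside -1.26 in Col(gl). In Ws it rose by 2.37 ± 0.19 (SE, n = 2 arrays each; limma, adjusted p = 5.4e-05). AT2G41640, a glycosyltransferase of family 61, had 7.12 and 7.23 in salted Col(gl) against 8.62 and 8.46 in unsalted Col(gl), and 8.64 and 8.83 in salted Col against 4.98 and 5.12 in unsalted Col. AT4G37240 had 8.12 and 8.02 in salted Col(gl) against 9.43 and 9.45 in unsalted Col(gl), and 8.88 and 9.08 in salted Col against 5.57 and 5.87 in unsalted Col. In both genes unsalted Col(gl) lay at or near the height of salted Col, and unsalted Col far below. In Ws AT2G41640 rose by 1.75 ± 0.15 (SE, n = 2 arrays each; limma, adjusted p = 1e-04). AT4G37240 rose there by 2.3 ± 0.15 (SE, n = 2 arrays each; limma, adjusted p = 1.7e-05).

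AT4G24380, a serine hydrolase of the FSH family, had 8.31 and 8.27 in salted Col(gl) against 9.62 and 9.73 in unsalted Col(gl), and 10.38 and 10.03 in salted Col against 8.04 and 8.43 in unsalted Col. Here salted Col(gl) had come down to the unsalted level of Col, and the 2 pairs of arrays overlapped. AT1G70740, a protein kinase, had a response of -1.10 in Col(gl) and 1.94 in Col, and AT1G25400 one of -1.07 in Col(gl) and 2.50 in Col. Both rose in Ws by less than 1 unit, AT1G70740 by 0.64 ± 0.12 (SE, n = 2 arrays each; limma, adjusted p = 0.0076) and AT1G25400 by 0.87 ± 0.16 (adjusted p = 0.0057).

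Several named members are of classes that take part in transport, protein turnover and transcription. AT5G52050, known as DTX50, is a MATE-type efflux carrier that has been described as exporting abscisic acid. It had 6.41 and 6.28 in salted Col(gl) against 7.17 and 6.92 in unsalted Col(gl), and 8.61 and 9.42 in salted Col against 6.51 and 6.16 in unsalted Col. Salted Col(gl) lay within the range of unsalted Col, and salted Col stood clear of all these arrays. Its rise in Ws, 1.39 ± 0.39, passed the test with an adjusted p of 0.036 (limma; SE, n = 2 arrays each) but not under 11 of the alternatives tried. PUB26, a U-box ubiquitin ligase with a role in immune signalling, responded by -0.74 in Col(gl) and 0.73 in Col. Its salted Col replicates were 6.91 and 8.0, against 6.79 and 6.66 in unsalted Col, so the size of its Col response rests mostly on 1 array. AT3G46600, a GRAS-family regulator, responded by -0.71 in Col(gl), 2.18 in Col and 1.83 ± 0.14 in Ws (SE, n = 2 arrays each; limma, adjusted p = 3.6e-05).

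**Figure D3:**
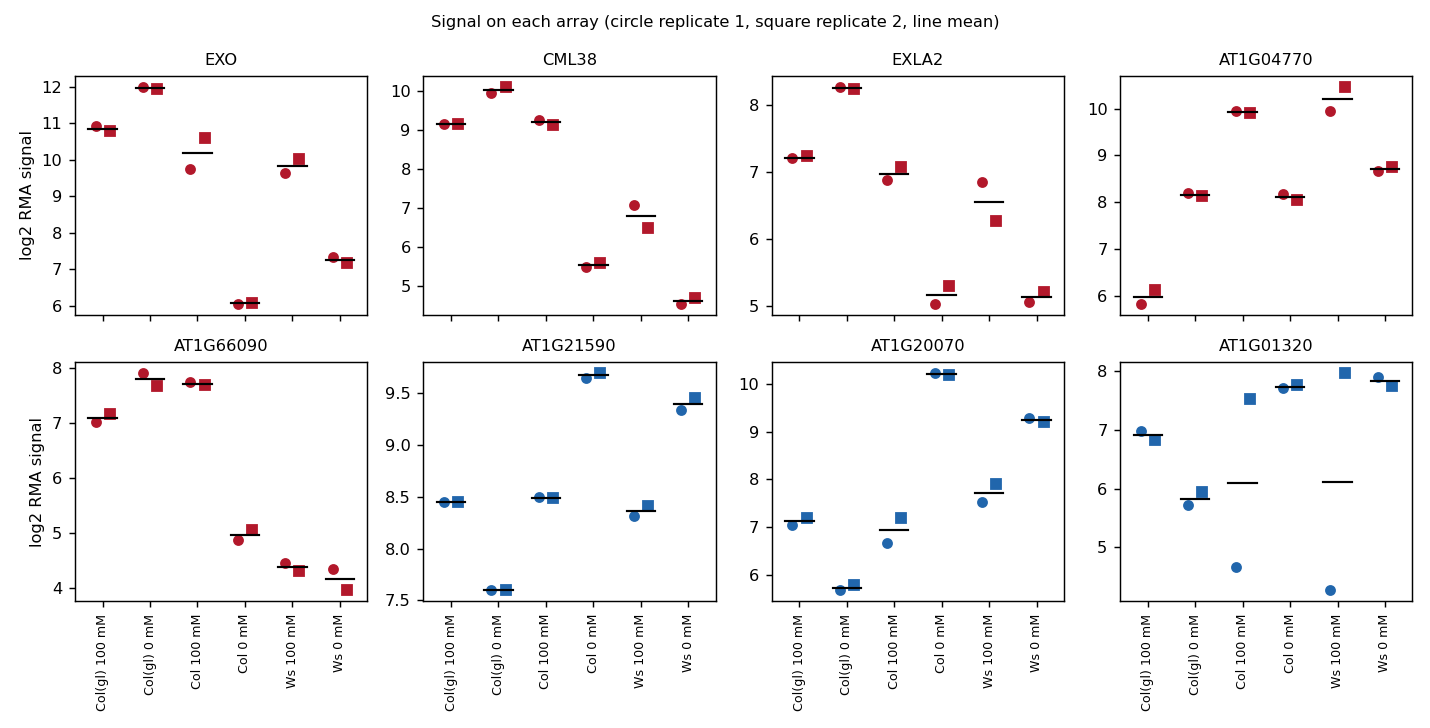
Log2 RMA signal of 8 members on each array (circle, replicate 1; square, replicate 2; line, mean), red for the Col-raised set and blue for the Col(gl)-raised set. EXO, CML38 and EXLA2 are as high or higher in unsalted Col(gl) than in salted Col, AT1G04770 starts alike in both genotypes, AT1G66090 stays low in Ws, and AT1G01320 is low on replicate 1 of salted Col and Ws, at 4.66 and 4.27.

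The 19 named Col(gl)-raised members were led by AT1G20070. Its signal was 7.04 and 7.19 in salted Col(gl) against 5.68 and 5.78 in unsalted Col(gl), and 6.66 and 7.20 in salted Col against 10.23 and 10.19 in unsalted Col. The genotypes were far apart without salt and at nearly the same height with it. The response was 1.38 in Col(gl) and -3.28 in Col, where the signal was 9.69-fold down. In Ws it fell by 1.53 ± 0.18 (SE, n = 2 arrays each; limma, adjusted p = 0.00051). AT1G21590, a protein kinase, had 8.45 and 8.45 in salted Col(gl) against 7.60 and 7.60 in unsalted Col(gl), and 8.50 and 8.49 in salted Col against 9.64 and 9.69 in unsalted Col. With salt the arrays of both genotypes lay between 8.45 and 8.50. It fell in Ws by 1.03 ± 0.09 (SE, n = 2 arrays each; limma, adjusted p = 0.00012).

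AT1G21050 had 7.63 and 7.37 in salted Col(gl) against 6.55 and 6.75 in unsalted Col(gl), and 6.33 and 6.35 in salted Col against 7.60 and 7.49 in unsalted Col. The genotypes exchanged places, salted Col(gl) standing at the level of unsalted Col and salted Col just under that of unsalted Col(gl). In Ws it fell by 0.86 ± 0.14 (SE, n = 2 arrays each; limma, adjusted p = 0.0026). AT4G16447 fell in Ws by 1.15 ± 0.22 (SE, n = 2 arrays each; limma, adjusted p = 0.0075), beside responses of 0.76 in Col(gl) and -1.13 in Col. Its unsalted Col(gl) arrays, at 4.16 and 3.88, were at background. AT1G20070, AT1G21590, AT1G21050 and AT4G16447 were the named Col(gl)-raised members called in Ws.

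Among the others were genes of metabolism and regulation. CSLA01, a cellulose synthase-like enzyme of the family that makes glucomannan, had 8.61 and 8.51 in salted Col(gl) against 7.59 and 7.68 in unsalted Col(gl), and 8.62 and 9.50 in salted Col against 10.61 and 10.47 in unsalted Col. Its response was 0.92 in Col(gl), -1.48 in Col and -0.16 ± 0.31 in Ws, which did not pass the test (SE, n = 2 arrays each; limma, adjusted p = 0.79). AT5G38710, a proline dehydrogenase that degrades proline, had 7.61 and 7.92 in salted Col(gl) against 7.01 and 6.79 in unsalted Col(gl), and 5.38 and 6.39 in salted Col against 7.09 and 7.10 in unsalted Col. Unsalted levels were alike and salt parted the genotypes, by 0.87 in Col(gl) and -1.21 in Col. Proline is a solute that plants accumulate under salt. In Ws the signal of AT5G38710 was 5.94 and 5.89 with salt and 5.72 and 6.11 without, with no difference called (limma, adjusted p = 1).

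AT1G64380, an AP2/ERF-family transcription factor, had 6.01 and 6.04 in salted Col(gl) against 5.38 and 5.05 in unsalted Col(gl), and 4.93 and 5.87 in salted Col against 7.38 and 7.09 in unsalted Col. Its unsalted Col arrays stood above all arrays of Col(gl). AT4G33550 responded by 0.84 in Col(gl) and -0.80 in Col, and AT4G16790 by 0.90 in Col(gl) and -1.42 in Col. AT1G33260, a protein kinase, responded by 0.77 in Col(gl) and -1.81 in Col. None of these 4 genes was called in Ws, where their responses lay between -0.86 and 0.29.

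**Figure D4:**
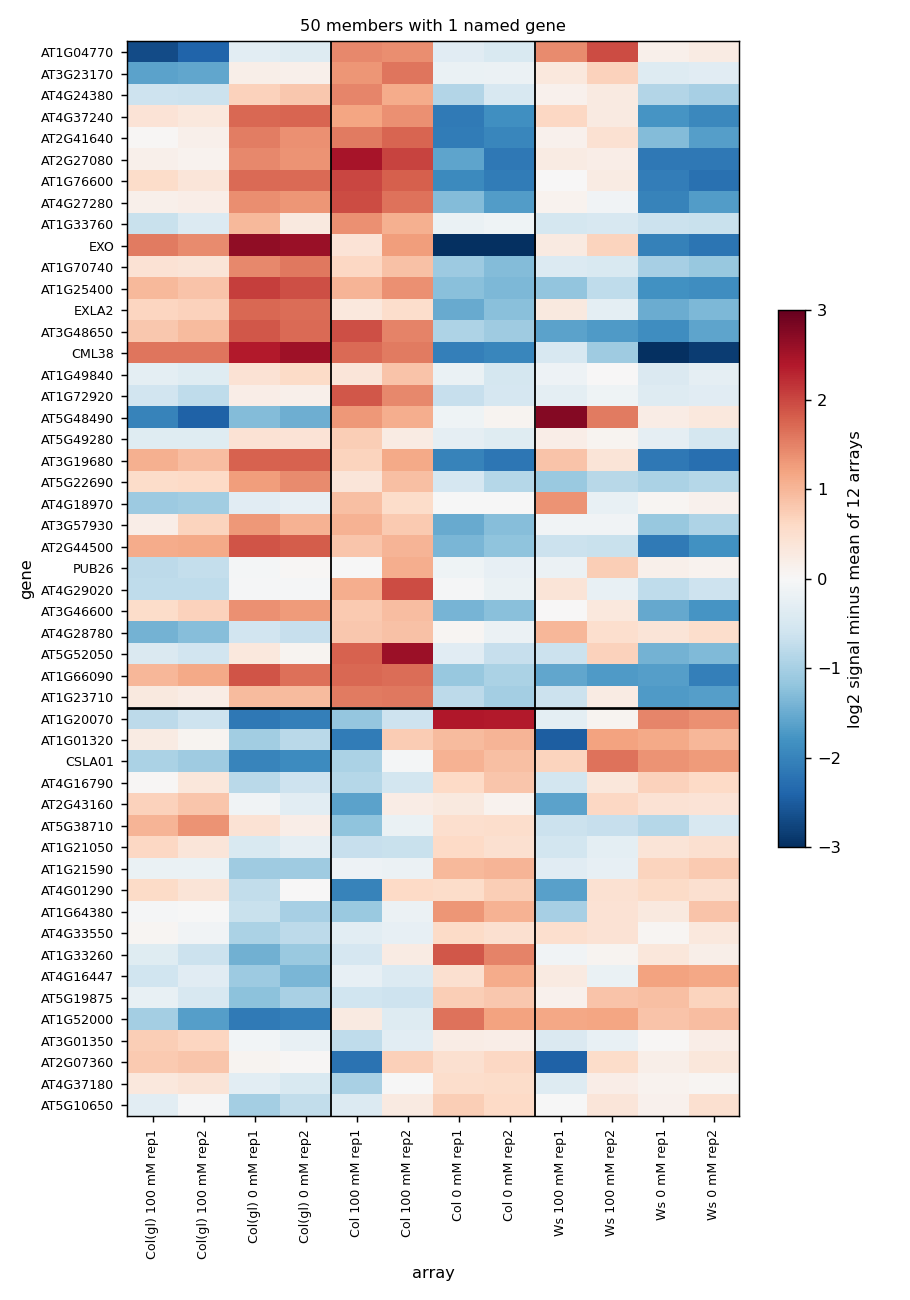
Log2 signal of the 50 members with 1 named gene (rows) on the 12 arrays (columns), each row centred on its mean over the arrays and values beyond 3 drawn at the end of the colour scale; Col-raised members are above the black line and Col(gl)-raised members below. Most Col-raised rows are red in unsalted Col(gl) and salted Col and blue in unsalted Col and Ws; AT1G01320, AT2G43160, AT4G01290 and AT2G07360 are blue on replicate 1 of salted Col and Ws.

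The Ws arrays entered the rule through the probe sets left out and through the highest group mean, which was taken over all 6 groups. Apart from the probe sets left out, the rule did not choose the Ws salt response. The same-numbered salted arrays of Ws and Col deviated together over all probe sets (r = 0.70). Ws is therefore not fully independent of the Col arrays that chose the members. Of the 82 Col-raised members, 53 were called higher with salt in Ws and 0 lower (limma, adjusted p under 0.05), or 64.6%, where 9.16% of all probe sets were called higher. Among all probe sets that met the rule's signal minimum of 6, 14.4% were called higher. The median Ws response of the 82 members was 1.32. In 78 members it had the direction of Col, with 49 at 0.5 times the Col response or more. In 67 members both salted Ws arrays lay above both unsalted ones, as they did in 24.3% of all probe sets. Probe sets that rise in Col also tend to rise in Ws outside the set. Of the 2304 others that were over 0.7 higher in Col and reached a signal of 6, 49.2% were called higher in Ws, with a median Ws response of 0.68 beside a median of 1.2 in Col. The members' own Col responses were larger than that, so the 2 shares are not matched for size.

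A smaller share of the Col(gl)-raised set was called in Ws. Of its 42 members 14 were called lower with salt in Ws and 0 higher (limma, adjusted p under 0.05), or 33.3%, where 7.45% of all probe sets were called lower. Among all probe sets that met the signal minimum of 6, 11.1% were called lower. The median Ws response of the 42 members was -0.85, and 36 members moved in the direction of Col, or 23 with salted Ws replicate 2 alone. The rule itself left out 4 probe sets from this side that rose in Ws, 3 of them called, so the absence of opposite calls is partly built in. Of the 1851 other probe sets that were over 0.7 lower in Col and reached a signal of 6, 41.2% were called lower in Ws, a larger share than among the members. In 19 members both salted Ws arrays lay below both unsalted ones, where 31.3% of all probe sets did so.

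**Figure D5:**
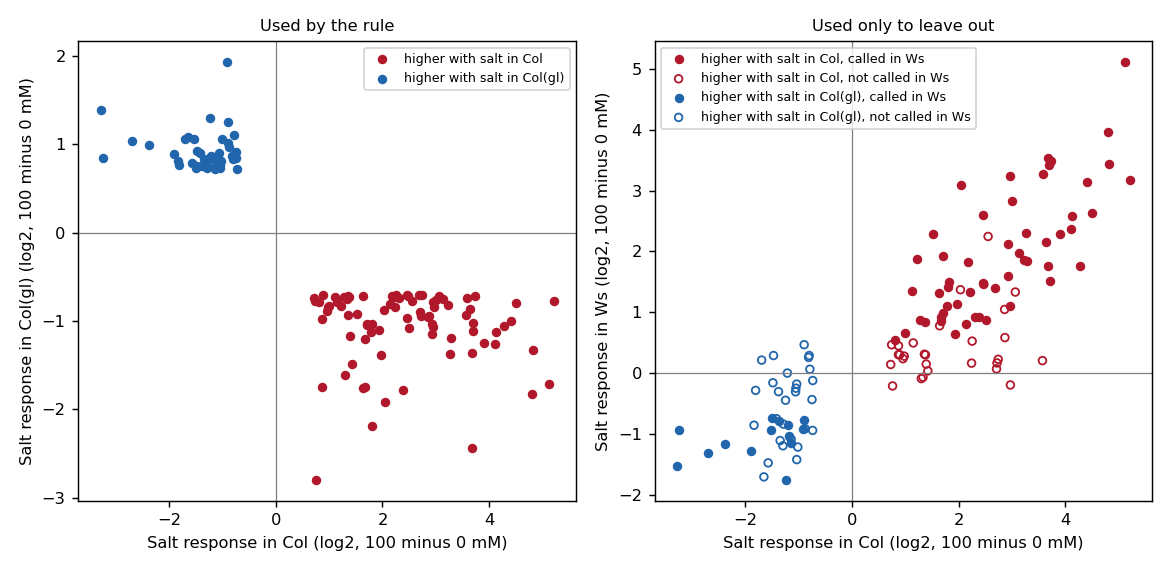
Salt response (log2, 100 minus 0 mM) of each of the 124 members in Col(gl) (left, vertical axis) and in Ws (right, vertical axis) against that in Col (horizontal axis); filled points on the right were called in Ws by limma at an adjusted p under 0.05. The left panel shows the choice of members; on the right, 53 of the 82 Col-raised and 14 of the 42 Col(gl)-raised members are filled.

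The largest Ws rise among named members was that of AT3G19680, a gene with no settled function. It had 10.04 and 9.57 in salted Ws against 7.03 and 6.91 in unsalted Ws, a rise of 2.84 ± 0.18 (SE, n = 2 arrays each; limma, adjusted p = 1.6e-05), or 7.15-fold. Col moved by 3.0 and Col(gl) by -0.76. AT1G76600 rose in Ws by 2.29 ± 0.14 (SE, n = 2 arrays each; limma, adjusted p = 9e-06). Of the 25 named members called in Ws, 15 were called under every alternative tried, among them EXO, CML38, EXLA2, AT1G04770 and AT1G20070.

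Ws did not follow Col everywhere. In 21 Col-raised members the Ws response was under 0.5 in size. Of these, 5 named genes had a Col response over 1, a group put together after their values were seen: AT1G66090, AT1G72920, AT5G22690, AT1G33760 and AT3G48650. AT1G66090, AT1G72920 and AT5G22690 encode proteins with the TIR domain of plant immune receptors, AT1G33760 is an AP2/ERF-family transcription factor, and AT3G48650 is annotated as a pseudogene. AT1G66090 had 7.03 and 7.16 in salted Col(gl) against 7.91 and 7.68 in unsalted Col(gl), and 7.74 and 7.69 in salted Col against 4.88 and 5.07 in unsalted Col. In Ws it had 4.46 and 4.32 with salt and 4.36 and 3.97 without, near background on all 4 arrays. The same holds for AT3G48650, at 3.88 and 3.79 in salted Ws and 3.63 and 3.91 in unsalted Ws, and for AT1G33760, at 4.33 and 4.36 in salted Ws and 4.21 and 4.19 in unsalted Ws. For AT1G66090, AT3G48650 and AT1G33760 a missing Ws response cannot be told from a signal too low to read. Whether the probes read Ws transcripts as well as those of Col was not tested.

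AT1G72920 was above background in Ws, with 6.45 and 6.62 with salt and 6.35 and 6.40 without. Its Ws response of 0.16 ± 0.15 did not pass the test (SE, n = 2 arrays each; limma, adjusted p = 0.52), while it had 8.61 and 8.19 in salted Col against 6.06 and 6.25 in unsalted Col. In Col(gl) it had 6.18 and 5.98 with salt and 6.94 and 6.89 without, so salted Col stood above all other groups. AT5G22690 had 5.12 and 5.40 in salted Ws against 5.28 and 5.38 in unsalted Ws. Its responses were -0.75 in Col(gl) and 1.33 in Col.

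The Col(gl)-raised set leaned on replicate 1 of the salted arrays, the pair that stood apart in plastid and actin signal. With replicate 1 as the only salted Col array the median Col response was -1.57, and with replicate 2 alone it was -0.99. With replicate 2 alone 37 of 42 members kept their sign in Col and 27 were still over 0.7 in size. In Ws the median was -1.06 with replicate 1 alone and -0.05 with replicate 2 alone, so the fall in Ws as a whole rests on replicate 1. By replicate 1 alone 36 of the 42 moved in the direction of Col in Ws, and by replicate 2 alone 23 did. The same-numbered salted arrays of Col and Ws deviated together over all probe sets (r = 0.70), so in neither set is Ws independent of the Col arrays that chose the members. In 11 of the 42 members salted Col replicate 1 was at least 1 unit below replicate 2, or 26.2%, against 2.04% of all probe sets. In salted Ws this was so for 14, or 33.3%, against 2.60% of all probe sets. The Col-raised set did not depend on them in this way, with a median Col response of 2.31 and 2.27 and a median Ws response of 1.27 and 1.08 by replicate 1 and replicate 2 alone. Of its 31 named members, AT5G49280 and AT4G18970 were under 0.7 in Col with replicate 2 alone, at 0.56 and 0.58.

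Of the 19 named members of this set, 7 were under 0.7 in size in Col with replicate 2 alone. In 4 of them hardly any response was left. AT1G01320 had 6.99 and 6.83 in salted Col(gl) against 5.72 and 5.95 in unsalted Col(gl), and 4.66 and 7.52 in salted Col against 7.71 and 7.77 in unsalted Col. In Ws it had 4.27 and 7.97 with salt and 7.90 and 7.75 without. Replicate 2 of both genotypes was thus close to the unsalted arrays, and replicate 1 close to background. AT2G43160, an epsin-type adaptor of vesicle transport, had 5.19 and 7.03 in salted Col and 5.20 and 7.42 in salted Ws, against 7.08 and 6.90 in unsalted Col and 7.24 and 7.21 in unsalted Ws. AT4G01290 had 4.16 and 6.75 in salted Col and AT2G07360 had 4.53 and 7.45. With replicate 2 alone the Col response was -0.22 for AT1G01320, 0.04 for AT2G43160, -0.05 for AT4G01290 and 0.16 for AT2G07360, all far under the size the rule asks for. It was -0.52 for AT3G01350, -0.56 for AT4G37180 and -0.39 for AT5G10650. For AT5G38710 it was -0.71, against -1.72 with replicate 1 alone. In AT1G01320, AT2G43160, AT4G01290 and AT2G07360 the higher signal with salt in Col(gl), by 0.75 to 1.08, was seen in both replicates. The part of the plastid and actin shift in these values was not tested. AT1G20070, AT1G21590, AT1G21050 and AT4G16447 held a Col response over 1 in size by either replicate alone, and with salted Ws replicate 2 alone their Ws responses lay between -1.37 and -0.72.

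The unsalted Col(gl) arrays, on which both sets turn, also had a lower plastid-encoded signal, with medians of 10.34 and 10.35 against 11.56 and 11.58 in salted Col(gl). Their actin difference was 2.69 and 2.47, against 2.17 and 2.66 in salted Col(gl). The part of this shift in the members' responses was not tested.

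Several genes that resemble members by family were higher with salt in Col, without a fall over 0.7 in Col(gl). The list of rapid stress regulators had 7 genes matched by name, of which CML38 was a member. The list holds 53 genes, and the others could not be matched by name, so that some may be among the 73 unnamed members. Of the other 6 matched, 3 were called higher in Col and 0 lower, 0 were called either way in Col(gl), and in Ws 2 were called higher and 1 lower (limma). Over all probe sets 16.4% were called higher and 21.1% lower in Col, and 0.787% higher and 0.703% lower in Col(gl). In Ws these shares were 9.16% and 7.45%. The responses of CML37, a close relative of CML38, were -0.46 ± 0.18 in Col(gl), 1.95 ± 0.18 in Col and 1.02 ± 0.18 in Ws (SE, n = 2 arrays each). PUB23, a U-box ubiquitin ligase, responded by -0.06 in Col(gl) and 2.94 in Col, and ORA47, an AP2/ERF regulator of jasmonate synthesis, by -0.01 in Col(gl) and 4.04 in Col. The median of the 6 was -0.16 in Col(gl), 1.11 in Col and 0.46 in Ws. Over all probe sets the Ws median was -0.04.

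Of the 58 genes of the cell wall list 11 were matched by name, EXO and EXLA2 among them, and the rest could not be looked up. Of the other 9 matched, 1 was called higher in Col(gl), 4 higher and 2 lower in Col, and 5 higher and 2 lower in Ws (limma). Over all probe sets 0.787% were called higher in Col(gl), 16.4% higher and 21.1% lower in Col, and 9.16% higher and 7.45% lower in Ws. The medians of the 9 were -0.31 in Col(gl), 0.64 in Col and 1.97 in Ws. The expansin genes EXPA4 and EXPA8 were the 2 called lower, with responses of -1.18 and -1.71 in Col and -1.21 and -1.76 in Ws. EXLA1, the closest named relative of EXLA2, responded by -0.36 ± 0.21 in Col(gl), 5.05 ± 0.21 in Col and 4.48 ± 0.21 in Ws (SE, n = 2 arrays each). XTH16, an enzyme that cuts and rejoins xyloglucan chains, responded by -0.42 in Col(gl) and 3.11 in Col, and XTH18, of the same family, by -0.37 in Col(gl) and 3.16 in Col. XTH19 was the one called higher in Col(gl), by 2.66 ± 0.29 (SE, n = 2 arrays each; limma, adjusted p = 0.0036), beside 3.33 in Col. The lists for dehydration, jasmonate, salicylate, clock, auxin and cold response had 2 to 6 genes each matched by name, of 26 to 43 listed, which is too few to say whether their genes are among the members.

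Values just inside and just outside the threshold differed little. Just inside 0.7 on the Col-raised side were AT1G23710, with -0.70 in Col(gl) and 2.46 in Col, and AT5G52050. Just outside were AT5G58090, with -0.69 in Col(gl) and 0.80 in Col, and AT3G05320, with -0.68 in Col(gl) and 0.69 in Col. On the other side AT5G10650, with 0.72 in Col(gl) and -0.74 in Col, and AT4G37180, with 0.73 in Col(gl) and -1.04 in Col, were inside. With salted Col replicate 2 alone both would be outside. AT2G37840, with 0.70 in Col(gl) and -0.73 in Col, and AT3G13062, with 0.69 in Col(gl) and -1.51 in Col, were outside. AT4G37180 and the Col-raised AT4G37240 lie near each other on the chromosome, with 6 protein-coding genes between them.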

How the data were processed

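Leaf RNA of 12 samples was labelled as biotinylated cRNA and hybridised to 1 Affymetrix array each. The authors deposited log2 signals per probe set, made with GCOS and RMA per the submitters' processing notes, which give no versions; these values were used as deposited. After 64 control probe sets were removed, 22746 remained, of which 13513 are listed with 1 gene. The limma package (3.58.1, R 4.3.3) fitted each of them (1 coefficient per group, eBayes; 6 residual and 3.45 prior degrees of freedom). P-values are two-sided and Benjamini-Hochberg adjusted over all 22746 probe sets, and a call is an adjusted p under 0.05. The study calls the samples of a group biological replicates without naming separate cultures, so p-values measure the spread between these samples. Their number limits the precision.

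Named members have 1 listed gene and are the 12 per direction with the largest smaller response, list members, the 6 largest called Ws responses per direction, those at the threshold, and genes with a symbol or in a described group. The members and gene lists were chosen with earlier results of these data known. A gene table (RefSeq) gave symbols and the order of genes. Gene classes are background knowledge. No sequences are shown, and promoter motifs were not searched. Deviations of same-numbered replicates correlated at r between -0.35 and 0.70 over pairs of groups, the highest for salted Ws with salted Col; not every pair exceeded 0.1, so the numbers were not taken to pair samples. The fit was tested on simulated data. Alternatives were another threshold, signal minimum, normalization, fit or filter, and leaving out arrays. Plots come from matplotlib 3.10.9 (Python 3.11.15).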

Additional observations from a re-analysis of the deposited data

Results flagged for a closer look

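In 82 Col-raised and 36 Col(gl)-raised members both salted arrays lay beyond both unsalted ones in Col(gl) and in Col, in opposite directions in the 2 genotypes. Of all probe sets, 28.6% were this far lower and 26.5% this far higher in Col(gl). In Col 26.8% were this far higher and 46.7% this far lower. The share of all probe sets with both at once was not counted. The difference between the genotypes was not tested, because the members were chosen for it.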

How the results depend on the processing

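The choice depends first on the size asked of both responses. Above 0.5 it gave 283 probe sets, 165 Col-raised and 118 Col(gl)-raised; above 1, 39, 32 and 7; above 1.5, 8, 8 and 0. A highest group mean of at least 8 left 23 Col(gl)-raised probe sets, and leaving out replicate 1 of salted Ws and Col together left 26. Leaving out single arrays gave 108 to 133 probe sets, 75 to 86 Col-raised and 27 to 50 Col(gl)-raised, the lowest total and Col(gl)-raised count without replicate 1 of salted Col and the lowest Col-raised count without replicate 1 of unsalted Col(gl). Quantile normalization gave 122, and 128 were chosen when opposite Ws responses were kept. The 53 Col-raised calls in Ws, beside 9.16% of all probe sets called higher, became 42 when Ws was fitted alone, beside 2.83% of all. With 1 probe set per named gene they became 21, a setting that counts only the 31 Col-raised members with 1 gene. The 14 Col(gl)-raised calls became 9 (without replicate 1 of unsalted Ws) to 27 (without replicate 2 of salted Ws), and 4 under each of the other 2 settings; these were fitted on fewer arrays or counted fewer probe sets. With a replicate block the counts were 54 and 14, beside 9.36% of all probe sets called higher and 7.53% lower. None of the 25 named Ws calls reversed in any setting. With salted Col replicate 2 alone 37 of 42 Col(gl)-raised members kept their sign in Col. Without single arrays the median Ws response of the Col-raised set was 1.08 to 1.28, that of the Col(gl)-raised set -1.06 to -0.05, and the median Col response of the Col(gl)-raised set -1.57 to -0.99. Of 25 named members called in Ws, AT5G49280 was lost under 12 alternatives and AT5G52050 under 11. With 2 arrays per group, the median SE of a Ws response was 0.17 in the Col-raised and 0.25 in the Col(gl)-raised set.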
